A study of Mus musculus with 12 samples.

Results

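The 10 long noncoding RNAs described here are Malat1, Neat1, H19, Meg3, Kcnq1ot1, Gas5, Snhg1, Snhg5, Snhg8 and Snhg12. They were chosen by gene name, as well-known nuclear, imprinted and snoRNA-host noncoding RNAs, out of 54345 genes in the table. Reads were found for 9 of the 10, and 8 of the 10 passed the filter for testing. The study asked how magnesium hexacyanoferrate nanocatalysts (MgHCF) and dexrazoxane (DXZ), the drug given against anthracycline heart damage, change the response of cells to doxorubicin (DOX), an anthracycline that poisons topoisomerase II. Wild-type H9c2(2-1) cells, a myoblast line from heart tissue, were kept for 6 h untreated (Unt), with DOX, with DOX and DXZ (D_DXZ), or with DOX and MgHCF (D_MgHCF), and 3 libraries of polyadenylated RNA were sequenced per group. The labels give the organism as mouse, the paper calls the line rat, and the genes of the table are mouse genes. Every treated group received DOX, no group received DXZ or MgHCF alone, and the doses in the sequenced cells are not given in the sources used here. Nothing in the labels says whether the 3 libraries of a group came from separate cultures, so p-values measure only the spread between these libraries.

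Long noncoding RNAs are transcribed and often spliced like mRNAs but are not known to be translated into conserved proteins. Malat1 collects in nuclear speckles, where splicing factors are stored, and Neat1 is the scaffold on which the nuclear bodies called paraspeckles form. The values here are per gene in polyadenylated RNA, so forms of Malat1 or Neat1 that are not polyadenylated can be missed. The forms of each RNA were not told apart. H19, Meg3 and Kcnq1ot1 are each made from only one parental copy of an imprinted gene cluster, and Kcnq1ot1 silences its neighbours in cis. Gas5 and the Snhg genes carry small nucleolar RNAs (snoRNAs), which guide the modification of ribosomal RNA, in their introns; the spliced host transcript that remains is in several cases broken down by nonsense-mediated decay (NMD), a pathway coupled to translation.

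Host genes of this kind are known for starting in a run of pyrimidines, as the mRNAs of ribosomal proteins do. The 60 bases around an annotated start are shown for the 5 host genes so that such a run can be looked for beside their levels. The sequences are from RefSeq on GRCm38.p6, each 5′ to 3′ on the strand of the gene, from 40 bases before the start to 20 bases into the transcript. Capitals mark the longest run of C and T between 10 bases before and 20 bases after the start, and the letters TATAAA where they occur.
Gas5: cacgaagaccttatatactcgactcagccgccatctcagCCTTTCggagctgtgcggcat
Snhg1: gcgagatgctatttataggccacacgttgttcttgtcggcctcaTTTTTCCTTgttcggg
Snhg5: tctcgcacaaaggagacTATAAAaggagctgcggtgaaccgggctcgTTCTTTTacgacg
Snhg8: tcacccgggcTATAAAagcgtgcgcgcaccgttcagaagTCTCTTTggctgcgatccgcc
Snhg12: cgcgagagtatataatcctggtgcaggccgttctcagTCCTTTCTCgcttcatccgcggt

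The windows lie at chr1:161035126-161035185 on the plus strand (Gas5, the second of 2 annotated starts), chr19:8723447-8723506 plus (Snhg1), chr9:88522878-88522937 minus (Snhg5), chr3:123508317-123508376 minus (Snhg8) and chr4:132308638-132308697 plus (Snhg12). The run was 9 bases long in Snhg1 and Snhg12, a length that 7.11% of all 32851 windows in the table reach. It was 7 bases in Snhg5 and Snhg8, which 17.9% of windows reach, and 6 bases in Gas5, which 28.7% reach. The marked run began only at base 5 of the transcript in Snhg1 and at base 8 in Snhg5, so it was not at their annotated start. It spanned the start in Gas5 and Snhg8, from 1 base before it, and in Snhg12, from 3 bases before it. At the other annotated start of Gas5 the run was 3 bases. Malat1 and Kcnq1ot1 had runs of 4 bases, the median of all windows, and Meg3 had runs of 5 and 3 bases at its 2 starts. In the full windows of 300 bases, searched on both strands, TATAAA was found in 4 of the 10 member windows (Snhg1, Snhg5, Snhg8 and the first start of Meg3) and in 13.6% of all windows. GGGCGG was found in 5 member windows, all of host genes, against 35.7% of all windows, CCAAT in 4 against 37.4%, and CACGTG in none against 7.15%. Neat1 and H19 are named only.

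The values are the authors' FPKM, which count fragments relative to gene length and a library size. Among genes with a mean FPKM of at least 1, the median log2 difference from Unt was 0.05 in DOX, -0.02 in D_DXZ and -0.08 in D_MgHCF, so the median gene was nearly level between groups. A library held 16626514 to 19365119 reads on genes. The library size by which the deposited values are divided was 1.32 to 1.38 times that sum for Unt, 0.647 to 0.784 times for DOX, 0.747 to 0.892 times for D_DXZ and 1.26 to 1.43 times for D_MgHCF. Beside FPKM over the summed reads, Unt and D_MgHCF values are thus lowered and DOX and D_DXZ values raised. Each fold change of the deposited values below is thus relative to a nearly level median gene. With FPKM over the summed reads, or with TPM (FPKM scaled to the same sum in every library), the median gene moved. In DOX against Unt it was at -0.69 and -1.18, and in D_MgHCF against DOX at 0.67 and 0.99. Fold changes under these scalings include that shift. In such bulk RNA, fewer cells of a type and less RNA per cell cannot be told apart. The cells were low in the myoblast regulators Myod1, Myf5 and Myog (at most 0.126 FPKM in any library) and in desmin (at most 1.57). They were high in smooth muscle actin Acta2 (means of 293 to 1831 FPKM) and vimentin (122 to 1042). The mesenchymal markers Col1a1 (means of 20 to 70.6) and Col3a1 (15.2 to 49.7) were lower than vimentin. The mesenchymal marker Thy1 was at most 0.0477 FPKM in any library, and the muscle marker Tnnt2 at most 0.97. Mature cardiomyocyte, endothelial and epithelial markers, 10 in all, stayed under 1 FPKM in every library, and of the 3 leukocyte markers Cd68 reached 4.77 FPKM, while Ptprc stayed at or under 0.0129. Mitochondrial genes took 1.19 to 1.41% of the reads of Unt libraries, 2.73 to 2.89% with DOX, 2.73 to 3.27% with D_DXZ and 1.76 to 3.16% with D_MgHCF. Its part in the results was not tested. D_MgHCF replicate 3 stood apart from the other D_MgHCF libraries for Neat1 and was lowest for Gas5 and Snhg8. Its mitochondrial share was 1.756%, against 3.164% and 2.905% in replicates 1 and 2. Without this library, the genes called by limma in D_MgHCF against Unt went from 6096 higher and 3941 lower to 8361 and 4685. Results that rest on it are given with and without it.

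In untreated cells Malat1 was the highest of the 10, at a mean of 45.1 FPKM, followed by Gas5 (40.5), Snhg1 (33.3), Neat1 (26.5), Snhg8 (25.4), Snhg5 (22.0) and Snhg12 (17.9). The libraries of Malat1 and Gas5 overlapped, as did those of each neighbouring pair from Neat1 down to Snhg12, whereas Gas5 lay above Snhg1, and Snhg1 above Neat1, without overlap. Kcnq1ot1 lay far lower, at 0.190 FPKM. With DOX the order became Malat1 (291), Snhg8 (57.5), Gas5 (50.4), Snhg1 (11.5), Snhg12 (5.67), Neat1 (5.59) and Snhg5 (1.53), and the spread between the highest and lowest of these 7 widened.

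**Figure D1:**
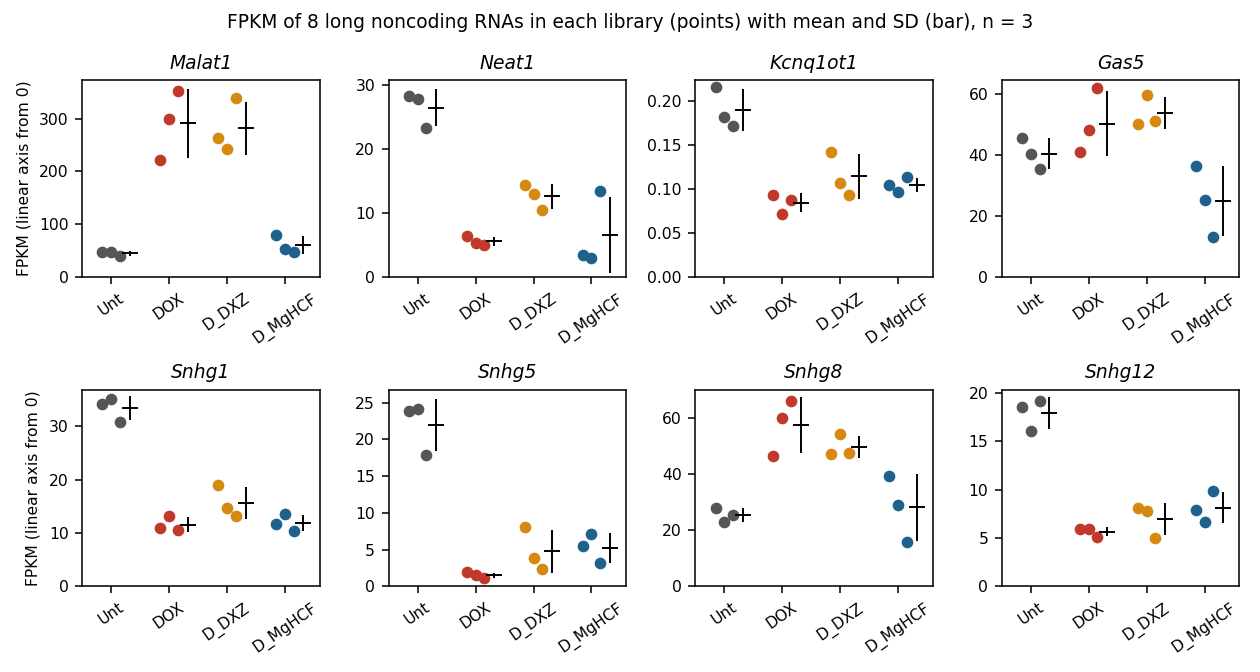
FPKM (linear axis from 0, a separate scale per panel) of the 8 tested members in each of the 12 libraries by group; points are libraries, and the bar beside them is the mean with its SD (n = 3). Malat1 is at 222 FPKM or more in all DOX and D_DXZ libraries and at 80.2 or less in all Unt and D_MgHCF libraries, while Snhg1, Snhg5 and Snhg12 are highest in Unt.

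Of the 8 members tested, 2 were higher and 5 lower in DOX than in Unt (limma on log2(FPKM + 1), Benjamini-Hochberg adjusted p under 0.05 over all 25044 genes tested). Over all genes tested, 18.6% were called higher and 19.9% lower in this comparison. In D_DXZ against Unt 2 members were higher and 4 lower, where 15.9% of all genes were higher and 18% lower. In D_MgHCF against Unt no member was higher and 5 were lower, where 24.3% of all genes were higher and 15.7% lower. Every tested member but Kcnq1ot1 had a mean FPKM of at least 1. For genes at that level the calls against Unt were 36.7% up and 33.3% down with DOX. They were 31.9% up and 31.5% down with D_DXZ, and 22.5% up and 29% down with D_MgHCF. The 3 comparisons share the Unt libraries. The median log2 difference of the 8 members was -0.79 in DOX, -0.56 in D_DXZ and -0.92 in D_MgHCF against Unt, beside 0.00, 0.00 and 0.05 over all genes tested.

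**Figure D2:**
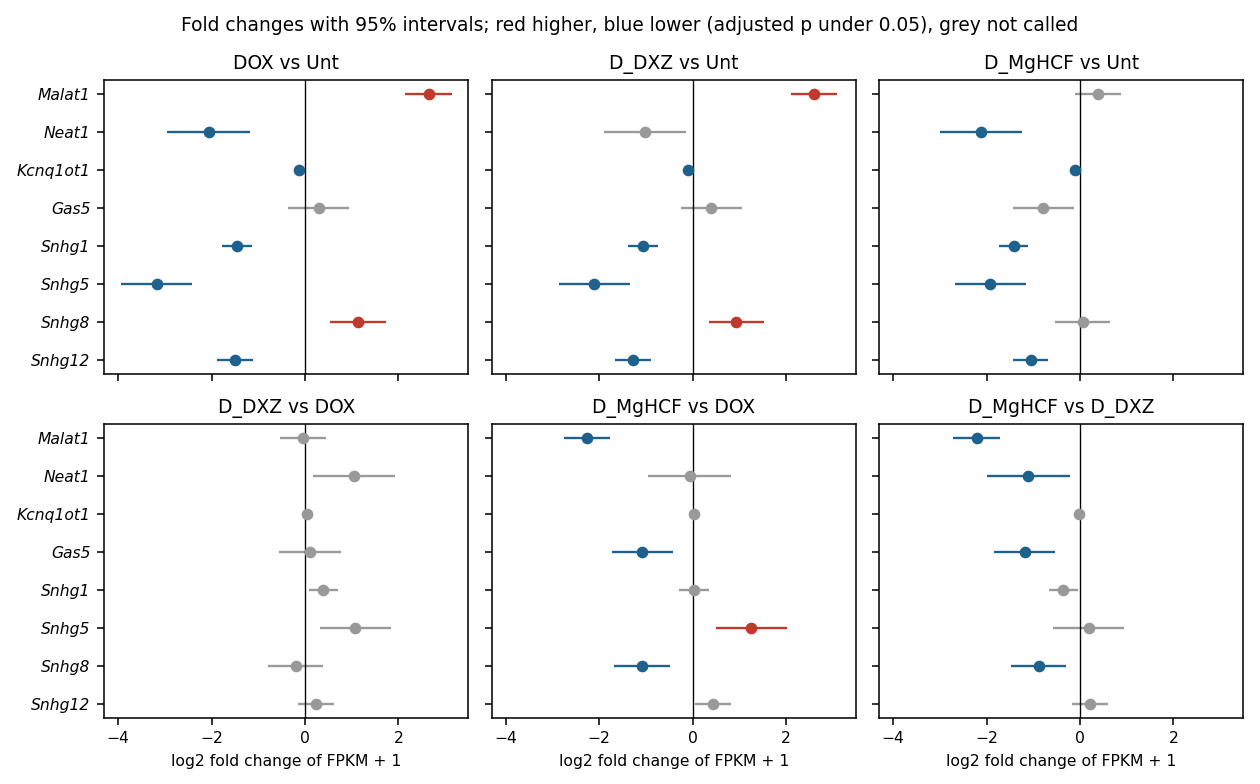
log2 fold change of FPKM + 1 (horizontal axis) with its 95% interval for the 8 tested members in the 6 comparisons; red is higher and blue lower at an adjusted p under 0.05, grey is not called. In the D_DXZ vs DOX panel all 8 are grey, while Malat1 is at 2.64 in DOX vs Unt and at -2.26 in D_MgHCF vs DOX.

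Malat1 (ENSMUSG00000092341, chr19:5795690-5802672, minus strand, lincRNA) was raised by DOX and was near its untreated level when MgHCF was present. It was at 48.3, 46.8 and 40.1 FPKM in Unt, 222, 300 and 352 in DOX, 264, 242 and 338 in D_DXZ and 80.2, 53.5 and 48.2 in D_MgHCF. DOX and D_DXZ libraries lay above every Unt and D_MgHCF library, and Unt and D_MgHCF overlapped. The log2 difference between DOX and Unt was 2.64 (95% interval 2.15 to 3.14, adjusted p = 1.4e-05 by limma), and that between D_DXZ and Unt was 2.61 (adjusted p = 5.59e-05). D_MgHCF fell by 2.26 against DOX (adjusted p = 2.29e-05) and by 2.22 against D_DXZ (adjusted p = 3.27e-05) on the log2 scale, and differed from Unt by 0.39 (-0.10 to 0.88, adjusted p = 0.188). The recovered reads moved the same way, from 6835 to 8484 in Unt to 23530 to 28450 in DOX. Malat1 holds stretches of 150 or 151 bases at least 95% identical to transcripts of 7 other genes with reads, among them Sympk and Upf3b, and reads from those stretches are uncertain.

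Neat1 (ENSMUSG00000092274, chr19:5824708-5845478, minus strand, lincRNA), the neighbour of Malat1 on the same strand, went the opposite way with DOX. It was at 28.4, 27.9 and 23.2 FPKM in Unt and at 6.39, 5.32 and 5.05 in DOX. D_DXZ libraries, at 14.4, 13.1 and 10.5, lay between both groups without overlap. D_MgHCF was split, at 3.42 and 2.90 in replicates 1 and 2 and 13.4 in replicate 3. DOX was lower than Unt by a log2 difference of -2.06 (-2.95 to -1.18, adjusted p = 0.00169 by limma), and D_MgHCF by -2.12 (adjusted p = 0.00227). D_DXZ differed from Unt by -1.02 (adjusted p = 0.0761) and from DOX by 1.05 (adjusted p = 0.468). D_DXZ was called lower than Unt with TPM (-2.22, adjusted p = 0.00399), FPKM over the summed reads (-1.74, 0.00901), quantile normalization (-1.38, 0.0437), voom (-1.203, 0.0206) and a filter at 1 FPKM (adjusted p = 0.0269). Without D_MgHCF replicate 3 the SE of this difference went from 0.397 to 0.13, and D_DXZ was also called lower than Unt (adjusted p = 0.000208). The difference of D_DXZ from DOX stayed at 1.05 without that replicate. Its SE likewise went from 0.397 to 0.13, and its adjusted p from 0.468 to 0.0527, not called. D_MgHCF differed from DOX by -0.06 (adjusted p = 0.911) with all libraries and by -0.66 (adjusted p = 0.00336, called) without replicate 3. Against D_DXZ it was lower by -1.11 (adjusted p = 0.0409) and, without that replicate, by -1.70 (adjusted p = 1.32e-05), but this call was lost without any one of the other 11 libraries (adjusted p = 0.054 to 0.151).

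Of the imprinted members, only Kcnq1ot1 was expressed at a level that could be tested. Meg3 (ENSMUSG00000021268, chr12:109541001-109571726, plus strand) had no read in any of the 12 libraries, which allows at most 0.0143 FPKM in the least sensitive library (3 reads). H19 (ENSMUSG00000000031, chr7:142575529-142578143, minus strand) had 2 reads in DOX replicate 2 and 2 in D_MgHCF replicate 3 and none elsewhere, where 3 reads would be 0.0479 to 0.105 FPKM. These limits cover counting error only and hold for reads assigned to the mouse genes; how reads of cells that the paper calls rat were assigned is not given in the sources used here.

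Kcnq1ot1 (ENSMUSG00000101609, chr7:143203458-143296549, minus strand, antisense to Kcnq1) was at 0.216, 0.182 and 0.171 FPKM in Unt and at 0.0934, 0.072 and 0.0873 in DOX. It was at 0.142, 0.107 and 0.0933 in D_DXZ and at 0.104, 0.0962 and 0.113 in D_MgHCF. All treated libraries lay below all Unt libraries. The mean was 2.25-fold lower in DOX, 1.66-fold lower in D_DXZ and 1.81-fold lower in D_MgHCF than in Unt. On the log2(FPKM + 1) scale, which flattens so low a gene, the differences were -0.13 (adjusted p = 0.00401 by limma), -0.09 (adjusted p = 0.03) and -0.11 (adjusted p = 0.0166). With a pseudocount of 0.1 in place of 1, the calls in D_DXZ (adjusted p = 0.167) and D_MgHCF (adjusted p = 0.0968) against Unt were lost. The call in D_DXZ was also lost with quantile normalization (adjusted p = 0.0607). It was lost too without Unt replicate 1 (adjusted p = 0.113) or 2 (0.0633) or D_DXZ replicate 2 (0.0848) or 3 (0.11). The call in D_MgHCF was lost without Unt replicate 1 (adjusted p = 0.0647). Kcnq1, a potassium channel gene on the opposite strand, had 18 reads in all 12 libraries, all in D_MgHCF. The libraries are not stated to keep the strand, so reads of overlapping genes cannot be told apart. Gm42636, with 375 bases at 95.7% identity to Kcnq1ot1, had 85 reads in all 12 libraries.

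Among the 5 snoRNA hosts, Snhg1, Snhg5 and Snhg12 fell in all 3 DOX-treated groups, Snhg8 was higher with DOX and with D_DXZ, and Gas5 was not called against Unt with the deposited values. The 26 snoRNA genes that lie within these 5 hosts (10 in Gas5, 8 in Snhg1, 5 in Snhg12, 2 in Snhg5 and 1 in Snhg8) had no read in any library of polyadenylated RNA, so only the hosts themselves were measured.

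Snhg5 (ENSMUSG00000097195, chr9:88521050-88522929, minus strand) fell the most with DOX of the 8 tested. It was at 23.9, 24.2 and 17.9 FPKM in Unt, 1.90, 1.49 and 1.199 in DOX, 8.06, 3.88 and 2.38 in D_DXZ and 5.50, 7.15 and 3.13 in D_MgHCF. DOX libraries held 24 to 50 reads of it against 755 to 1041 in Unt. The log2 difference between DOX and Unt was -3.18 (-3.94 to -2.42, adjusted p = 4.4e-05 by limma), a mean 14.4-fold lower. It was the only member called higher in D_MgHCF than in DOX, by 1.26 (0.50 to 2.03, adjusted p = 0.0111), a call lost with quantile normalization (0.96, adjusted p = 0.0537). D_DXZ was also above DOX in every library, with a log2 difference of 1.08 and an adjusted p of 0.386. Its transcripts share 233 bases at 96.1% and 95.7% identity with 9330159M07Rik and 9430037G07Rik, which had 394 and 298 reads in all 12 libraries.

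Snhg1 (ENSMUSG00000108414, chr19:8723475-8726443, plus strand) was at 34.1, 35.1 and 30.8 FPKM in Unt and between 10.4 and 18.9 in the 9 treated libraries, without overlap. The log2 difference from Unt was -1.46 in DOX (adjusted p = 2.44e-05), -1.06 in D_DXZ (adjusted p = 0.000269) and -1.42 in D_MgHCF (adjusted p = 7.14e-05), by limma. Snhg12 (ENSMUSG00000086290, chr4:132308678-132311024, plus strand) was at 18.6, 16.0 and 19.2 FPKM in Unt and between 5.02 and 9.82 in the treated libraries. Its log2 differences from Unt were -1.50 (adjusted p = 6.26e-05), -1.27 (adjusted p = 0.000303) and -1.06 (adjusted p = 0.00105). Its level in D_MgHCF, at 7.93, 6.67 and 9.82 FPKM, was above that in DOX, at 5.96, 5.94 and 5.10, by a log2 difference of 0.44 (0.06 to 0.83, adjusted p = 0.0533), which was called without D_MgHCF replicate 2 (0.56, adjusted p = 0.0325) or D_DXZ replicate 3 (adjusted p = 0.0211). It was also called with a pseudocount of 0.1 (adjusted p = 0.0477), a filter at 1 FPKM (0.036), TPM (1.63, adjusted p = 0.000264) and FPKM over the summed reads (1.28, 0.000439).

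Snhg8 (ENSMUSG00000104960, chr3:123507552-123508404, minus strand) was at 28.0, 22.8 and 25.5 FPKM in Unt, 46.4, 60.1 and 65.9 in DOX, 47.2, 54.1 and 47.4 in D_DXZ and 39.3, 29.2 and 15.8 in D_MgHCF. DOX and D_DXZ lay above Unt without overlap. The log2 difference was 1.13 in DOX (adjusted p = 0.00558 by limma), 0.94 in D_DXZ (adjusted p = 0.0185) and 0.05 in D_MgHCF (adjusted p = 0.895) against Unt, and -1.08 in D_MgHCF against DOX (adjusted p = 0.00636). The call in D_DXZ against Unt was lost without Unt replicate 2 (adjusted p = 0.066) or D_DXZ replicate 2 (0.0639), and that in D_MgHCF against D_DXZ (-0.88, adjusted p = 0.019) without D_DXZ replicate 2 (0.0604). These calls were also lost with TPM, FPKM over the summed reads and quantile normalization, and with TPM the signs changed. Without D_MgHCF replicate 3 the difference from DOX was -0.73 (adjusted p = 0.00427). Its reads, 467 to 601 in Unt and 601 to 658 in DOX, met at 601, and the call depended on the library scaling. With FPKM over the summed reads of each library the difference between DOX and Unt was 0.21 (adjusted p = 0.606), and with TPM it was -0.20 (adjusted p = 0.515). The median gene with a mean FPKM of at least 1 was at -0.69 and -1.18 with these scalings.

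Gas5 (ENSMUSG00000053332, chr1:161034422-161038539, plus strand), a host known to be broken down by NMD, was at 45.5, 40.5 and 35.6 FPKM in Unt, 40.9, 48.1 and 62.1 in DOX, 50.1, 59.9 and 51.3 in D_DXZ and 36.3, 25.3 and 13.1 in D_MgHCF. The groups Unt and DOX overlapped, and the log2 difference of DOX from Unt was 0.29 (-0.36 to 0.95, adjusted p = 0.549 by limma). D_MgHCF was lower than DOX by -1.08 (adjusted p = 0.0116) and than D_DXZ by -1.19 (adjusted p = 0.00759), and without replicate 3, the lowest, by -0.69 (adjusted p = 0.0132) and -0.80 (adjusted p = 0.00657). The call against D_DXZ was lost with TPM (-0.18, adjusted p = 0.53), FPKM over the summed reads (-0.43, 0.194) and quantile normalization (-0.59, 0.214). With TPM the difference between DOX and Unt was -1.06 (adjusted p = 0.00313, called) and that between D_MgHCF and DOX was 0.10 (adjusted p = 0.715). The median gene with a mean FPKM of at least 1 was at -1.18 and 0.99 in these comparisons with TPM. Zbtb37, a zinc finger gene that overlaps Gas5 by 428 bases on the other strand, was at a mean of 1.45 FPKM in Unt and 0.331 in DOX. With the reads of both genes summed, Gas5 differed by 0.11 in DOX against Unt and by -0.95 in D_MgHCF against DOX. D_MgHCF differed from Unt by -0.78 (adjusted p = 0.0577), which was called without D_MgHCF replicate 1 (-1.10, adjusted p = 0.0106) and was -0.40 (adjusted p = 0.121) without replicate 3. It was called lower with TPM (-0.95, adjusted p = 0.00782), FPKM over the summed reads (-0.77, 0.0367), quantile normalization (-1.03, 0.0396) and voom (-0.92, 0.00482).

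Beside DOX, 1 member was higher and 3 were lower in D_MgHCF, where 31.4% of all genes were called higher and 20.1% lower. Malat1, Gas5 and Snhg8 were the lower ones and Snhg5 the higher one. Against D_DXZ no member was higher and Malat1, Neat1, Gas5 and Snhg8 were lower in D_MgHCF, where 29.4% of all genes were higher and 19% lower. For genes with a mean FPKM of at least 1, the D_MgHCF calls were 33.5% up and 40.1% down beside DOX. Against D_DXZ they were 30.4% up and 38% down. In D_DXZ against DOX no member was called, and over all genes 0% were called higher and 0% lower by limma. At an unadjusted p under 0.05, 3 of the 8 members (Neat1, Snhg1 and Snhg5, all with higher levels in D_DXZ) and 2388 of all genes tested passed, and no gene was called with voom on the recovered reads. The intervals of the difference between D_DXZ and DOX were -0.53 to 0.46 for Malat1, 0.16 to 1.93 for Neat1, 0.31 to 1.84 for Snhg5 and 0.08 to 0.71 for Snhg1.

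**Figure D3:**
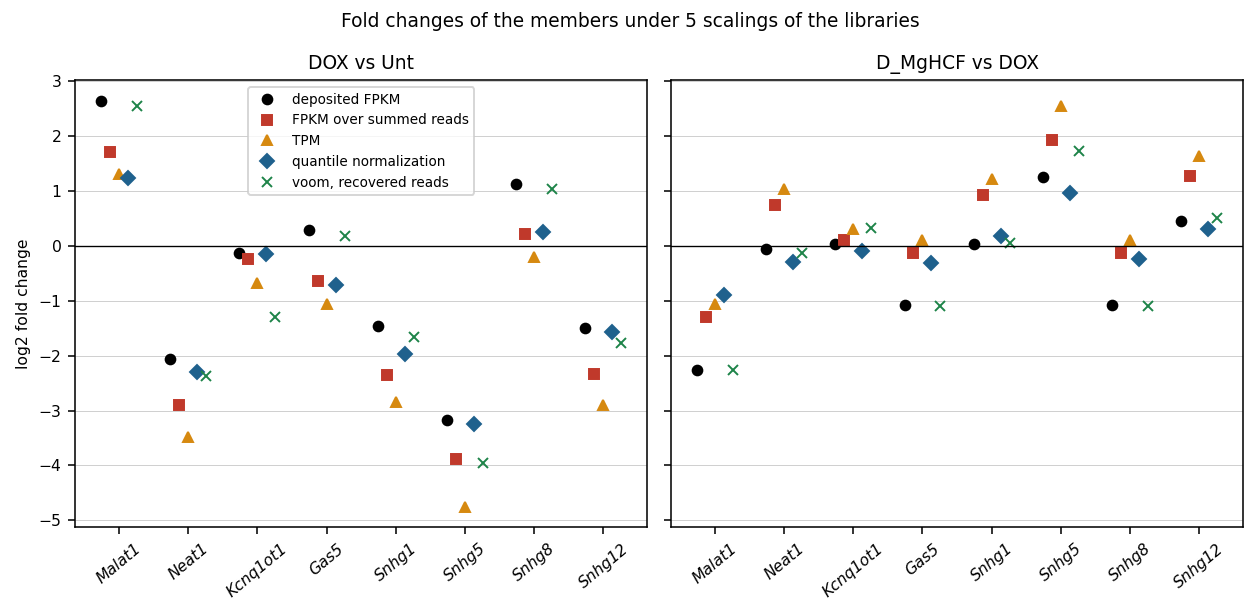
log2 fold change of the 8 tested members in DOX vs Unt (left) and D_MgHCF vs DOX (right) under 5 ways of scaling the libraries, on the log2(value + 1) scale except for voom, which works on log2 counts. In DOX vs Unt Malat1 stays between 1.24 and 2.64 and Snhg5 between -4.76 and -3.18, while Gas5 runs from -1.06 to 0.29 and Snhg8 from -0.20 to 1.13.

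Scaling the libraries in other ways changed some calls. In DOX against Unt, TPM shifted the median of genes with a mean FPKM of at least 1 from 0.05 to -1.18, and the split of the members from 2 higher and 5 lower to 1 and 6. Over all genes it moved from 4649 higher and 4973 lower to 1111 and 10227. Malat1 was called higher and Neat1, Kcnq1ot1, Snhg1, Snhg5 and Snhg12 lower with every scaling. In D_MgHCF against DOX the split was 1 higher and 3 lower with the deposited values, 4 and 1 with TPM and with FPKM over the summed reads, 0 and 1 with quantile normalization and 1 and 3 with voom. Malat1 was called lower in each of these, with log2 differences of -2.26 to -0.90, and Gas5 and Snhg8 were not called with TPM, with FPKM over the summed reads or with quantile normalization. In this comparison the median of genes with a mean FPKM of at least 1 was 0.99 with TPM and 0.67 with FPKM over the summed reads. In D_MgHCF against D_DXZ the split turned from 0 higher and 4 lower to 3 and 1 with TPM, where Snhg1 (0.64, adjusted p = 0.0211), Snhg5 (1.17, 0.0367) and Snhg12 (1.22, 0.00194) were called higher. With TPM the median of genes with a mean FPKM of at least 1 was 0.82 in this comparison, above Snhg1. Over all genes 12801 were called higher and 1559 lower there. The split of the members was 1 and 1 with FPKM over the summed reads, 0 and 2 with quantile normalization and 0 and 4 with voom. In D_DXZ against Unt the split of 2 and 4 became 1 and 6 with TPM, and in D_MgHCF against Unt 0 and 5 became 0 and 6.

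Genes that work with these RNAs were described from fixed lists. Of the 11515 genes tested with a mean FPKM of at least 1, 36.7% were higher and 33.3% lower in DOX than in Unt (median 0.05), and 33.5% were higher and 40.1% lower with MgHCF beside DOX than with DOX alone (median -0.09). Paraspeckle proteins bind Neat1, and 14 of 16 were higher and none lower in DOX than in Unt, with a median log2 difference of 1.03. In D_MgHCF against DOX 14 were lower and none higher (median -1.51). Nono, a core paraspeckle protein, was at 119 ± 4.74 FPKM in Unt, 326 ± 42.7 in DOX, 275 ± 34.7 in D_DXZ and 63.0 ± 13.8 in D_MgHCF (SD, n = 3). Matr3, an RNA-binding protein of the nuclear matrix, had the largest rise in DOX (1.86), and Hnrnpk, an RNA-binding protein, the largest fall in D_MgHCF against DOX (-2.45). With TPM the counts in DOX against Unt were 2 higher and 6 lower, with quantile normalization 4 and 2, and with FPKM over the summed reads 5 and 4. In D_MgHCF against DOX they were 3 higher and 6 lower with TPM.

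Of the proteins that form snoRNA particles, 5 of 9 were higher and 2 lower in DOX (median 0.99), and in D_MgHCF against DOX 8 were lower (median -1.06). Nop10, a part of the H/ACA particle, rose by 2.27 in DOX, whereas Nop56, a part of the C/D particle, fell by 1.203, and Dkc1, the pseudouridine synthase, fell by 3.13 in D_MgHCF against DOX. Nhp2, with the highest mean of the list over the 12 libraries, was at 66.6 ± 9.54 FPKM in Unt and 132 ± 7.93 in DOX. With TPM 1 was higher and 4 lower in DOX (median -0.36), and 2 were higher and 3 lower in D_MgHCF against DOX.

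Of the 14 other snoRNA hosts tested, 3 (21.4%) were higher and 5 (35.7%) lower in DOX (median 0.01), and 1 was higher and 6 lower in D_MgHCF against DOX (median -0.29). Snhg11 and Snhg14, at group means of at most 0.0134 and 0.0235 FPKM, lay at the median in DOX. The log2(FPKM + 1) scale flattens such low genes, and Snhg3 and Snhg7 were also under 1 FPKM in each group mean. Snhg10 rose by 1.53 and Zfas1 fell by 1.39 in DOX, and Epb41l4aos, with the highest mean of the list over the 12 libraries, at 20.6 ± 2.45 FPKM in Unt and 49.7 ± 7.81 in DOX, fell by 1.55 in D_MgHCF against DOX, where Snhg15 rose by 0.67. Snhg16 and Dancr were not found by symbol. With TPM the counts were 0 higher and 7 lower in DOX and 7 higher and 2 lower in D_MgHCF against DOX.

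Of 14 NMD factors, 3 (21.4%) were higher and 5 (35.7%) lower in DOX (median -0.05), and 3 were higher and 8 lower in D_MgHCF against DOX (median -0.81). Magoh, a subunit of the exon junction complex, had the largest rise in DOX (1.44) and Smg8, a regulator of the kinase Smg1, the largest fall (-1.51). In D_MgHCF against DOX Smg8 rose by 1.24, and Smg9, its partner, fell by 1.83. With TPM the counts were 0 higher and 10 lower in DOX, and 7 higher and 1 lower in D_MgHCF against DOX. The genes of the imprinted clusters were mostly silent, with 8 of 15 tested; 2 were higher and 1 lower in DOX, and 3 were higher and 2 lower in D_MgHCF against DOX (with TPM 0 and 1, and 5 and 1). Tssc4, from the cluster of Kcnq1ot1, fell by 1.95 in DOX and rose by 1.74 in D_MgHCF against DOX. Cd81, with the highest mean over the 12 libraries, was at 53.5 ± 2.21 FPKM in Unt and 126 ± 10.4 in DOX, and Nap1l4 rose by 1.32 in DOX and fell by 1.49 in D_MgHCF against DOX, though with TPM it was -0.03 in DOX. Igf2, Dlk1 and Ins2 had no read.

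**Figure D4:**
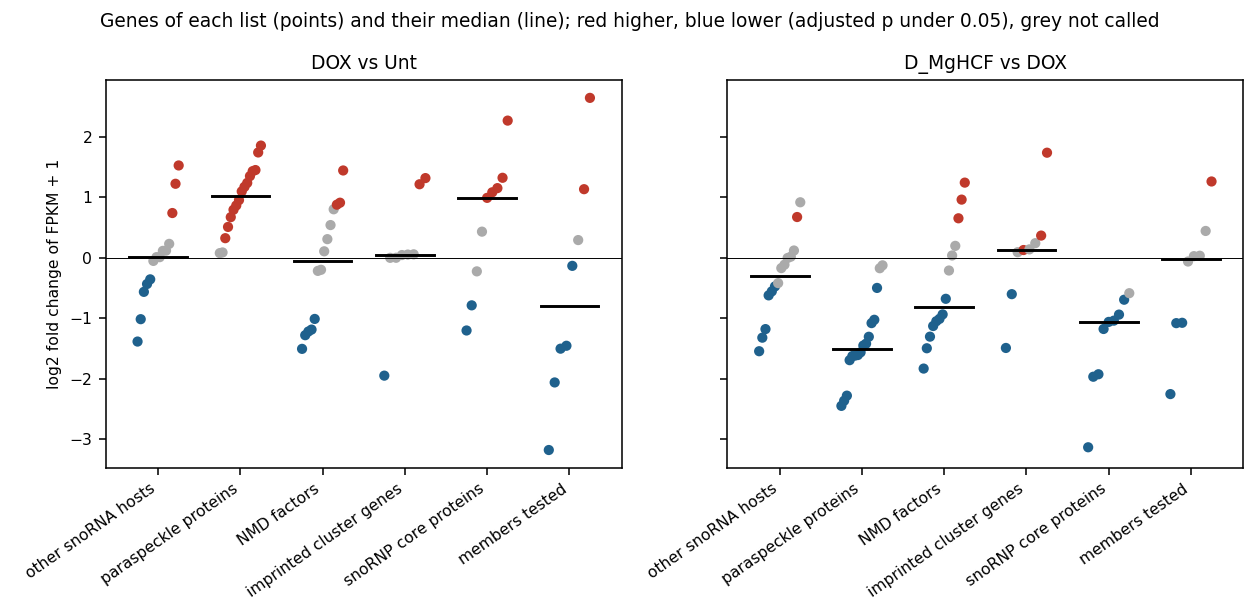
log2 fold change of FPKM + 1 in DOX vs Unt (left) and D_MgHCF vs DOX (right) for the genes of 5 lists and the tested members; points are genes, lines are medians, red is higher and blue lower at an adjusted p under 0.05, grey is not called. With the deposited scaling, paraspeckle proteins lie at a median of 1.03 on the left (-0.32 with TPM) and -1.51 on the right (-0.33 with TPM), while the members lie on both sides of 0.

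Among all annotated long noncoding genes with a mean FPKM of at least 1, 387 in all, 73 (18.9%) were higher and 88 (22.7%) lower in DOX than in Unt, and with MgHCF added to DOX 162 (41.9%) rose and 79 (20.4%) fell. With TPM these counts were 12 and 227, and 272 and 18, and with quantile normalization 99 and 58, and 105 and 101. With the deposited values their median log2 differences were 0.00 and 0.46, beside 0.05 and -0.09 for all genes at that level. The gene whose FPKM was most correlated with Malat1 over the 12 libraries was Arl2bp (Pearson's r 0.9937), at 26.4 ± 0.354 FPKM in Unt and 92.4 ± 14.4 in DOX. For Snhg5 it was Cenpc1 (0.9879), for Snhg12 Arhgef2 (0.9885), for Snhg8 Gm10443 (0.9865), for Neat1 AW549877 (0.9843), for Snhg1 Tmem175 (0.9801) and for Gas5 Ero1l (0.9761). The likeness was sought among 11510 genes, and the 12 libraries share the 4 groups, so many genes can show such a pattern.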

How the data were processed

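The authors sequenced polyadenylated RNA (paired-end reads of 150 bp; HISAT2 2.0.5 and GRCm38 in the submitters' processing notes) and deposited FPKM values of 54345 genes in 12 libraries. The counting program and annotation release are not given in the sources used here. The members and gene lists were chosen with earlier results of these data known. Each FPKM times its gene length gave a whole number of steps in every library, and 100% of the values came out as whole reads (tolerance 0.1 read). Differences were tested on the log2(FPKM + 1) scale by limma 3.58.1 (R 4.3.3), fitting the 4 groups together with a mean-dependent prior; the 25044 genes that were above 0 in 3 or more libraries entered. Calls needed a Benjamini-Hochberg adjusted p under 0.05, in 6 comparisons. Named list genes are the one with the highest mean FPKM and, in DOX vs Unt and D_MgHCF vs DOX, the called genes with the largest rise and fall. Alternatives were a pseudocount of 0.1, filters, unadjusted p, a replicate block, TPM, quantile normalization, voom with TMM on the recovered reads and each library left out. FPKM over the summed reads was added after seeing the data. Near-identical copies were sought with BLAST 2.17.0 in GENCODE M21 transcripts (at least 95% identity over 150 bases). The procedure was tested on simulated data.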

Additional observations from a re-analysis of the deposited data

How the results depend on the processing

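Of the 26 called differences of the members, tried under 543 alternatives in all, 497 kept the direction and the call, 41 lost the call and 5 changed sign. The alternatives include the unadjusted p, which cannot lose a call. They also include fits without a library of a group not compared, where the log2 difference cannot change. The share kept is thus no measure of how firm the calls are. Differences not called became called with the same sign under 39 alternatives. Of these, 8 were for Gas5 in D_MgHCF against Unt, 7 for Neat1 in D_DXZ against Unt and 7 for Snhg12 in D_MgHCF against DOX. With TPM the median gene with a mean FPKM of at least 1 was at -1.18 in DOX, -1.10 in D_DXZ and -0.23 in D_MgHCF against Unt. It was at 0.99 in D_MgHCF against DOX and at 0.82 against D_DXZ. TPM changed the sign of Gas5 in DOX (-1.06, called) and D_DXZ (-0.77, called) against Unt and in D_MgHCF against DOX (0.10). It changed that of Snhg8 in DOX (-0.20), D_DXZ (-0.22) and D_MgHCF (-0.10) against Unt and in D_MgHCF against DOX (0.10) and D_DXZ (0.13). The sign also changed for Neat1 in D_MgHCF against DOX (1.04), Malat1 in D_DXZ against DOX (0.14) and Nap1l4 in DOX (-0.03). In D_MgHCF against D_DXZ it changed for Kcnq1ot1 (0.21) and Snhg1 (0.64, called). FPKM over the summed reads did so for Gas5 in DOX (-0.64) and D_DXZ (-0.35) against Unt, Neat1 in D_MgHCF against DOX (0.74), Malat1 in D_DXZ against DOX (0.15), and Kcnq1ot1 (0.066) and Snhg1 (0.37) in D_MgHCF against D_DXZ. Quantile normalization did so for Gas5 in DOX (-0.72) and D_DXZ (-0.44) against Unt, Malat1 (0.21) and Snhg8 (0.022) in D_DXZ against DOX, Kcnq1ot1 in D_MgHCF against DOX (-0.10) and Snhg5 in D_MgHCF against D_DXZ (-0.040), and voom for Snhg8 in D_MgHCF against Unt (-0.059).

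The members called in D_MgHCF against DOX went from 4 to 1 with quantile normalization, and in D_MgHCF against D_DXZ from 4 to 2 with quantile normalization and with FPKM over the summed reads. In D_DXZ against DOX 3 passed at an unadjusted p. With each library left out, the members called in D_MgHCF against D_DXZ ranged from 2 to 4, with 2 when D_DXZ replicate 2 was left out. The log2 difference then ranged from -0.22 to 0.11 for Malat1 and from -0.027 to 0.27 for Gas5 in D_DXZ against DOX, from -0.66 to 0.28 for Neat1 and from -0.056 to 0.12 for Snhg1 in D_MgHCF against DOX, from -0.026 to 0.0054 for Kcnq1ot1 and from -0.14 to 0.57 for Snhg5 in D_MgHCF against D_DXZ, and from -0.23 to 0.40 for Snhg8 in D_MgHCF against Unt. The cause of these changes was not tested.

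Whether libraries with the same replicate number were paired is not stated in the labels. The paper names paired t tests for the FPKM of selected genes. Of 18 same-number pairs, 3 had correlated deviations above 0.1 (-0.408 to 0.422), and 7 of 12 libraries correlated best with their own number. These values do not settle the pairing. With a replicate block 7, 6, 5, 0, 4 and 4 members were called in the 6 comparisons in the order above, Neat1 in D_MgHCF against D_DXZ was not called (adjusted p = 0.0619) and Snhg1 was (adjusted p = 0.0325). The call of Neat1 was lost in 16 of 21 alternatives. The log2 differences of genes under about 1 FPKM, such as Kcnq1ot1, depend on the pseudocount, and 3 libraries per group limit every interval.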
